A study of Mus musculus with 39 samples.

Results

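C1q recognises antibody complexes and dying cells and so starts the classical complement cascade. The comparison described here asked how the transcripts of mouse lung fibroblasts differed between 72 h and 48 h of culture with C1q at 100 µg/ml, the highest dose of the series. It used the 3 libraries labelled as treated with C1q at 100 µg/ml for 72 h and the 3 labelled with the same dose for 48 h, 6 of the 39 libraries in the series. The members were taken from the labels alone and not from any measured value.

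The cells of all groups came from the lungs of wild-type (WT) C57BL/6 mice and had been depleted of leukocytes (CD45), endothelial cells (CD31), epithelial cells (EpCAM), perivascular cells (CD146) and red cell precursors (Ter119). They had been grown on plastic with serum, passaged to multiwell plates and deprived of serum for 24 h before C1q was added. The other 11 groups were untreated cells at 0 h, the 100 µg/ml dose at 2 and 24 h, and doses of 1 and 10 µg/ml at 2, 24, 48 and 72 h. No group without C1q was labelled with 48 h or 72 h, so that time in culture and time with C1q cannot be told apart. The labels gave no ages or sexes and did not say whether libraries of a group came from separate mice or cultures, so p-values reflect the spread among the libraries as deposited, and that spread may be technical only.

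Each library counted poly(A) transcripts by reads at their 5′ ends. The 6 libraries held 1845809 to 2466076 counts. The row named LOC118568312 took 11.5 to 14.1% of them. The first principal component of the 6 libraries carried 32.3% of the variance and parted the 2 times, at -20.5 to -18.7 for 48 h and 16.4 to 23.4 for 72 h. Levels are given as CPM (counts in proportion to library size, corrected by trimmed mean of M values factors), and differences as log2 of 72 h over 48 h ± the standard error of edgeR's quasi-likelihood fit, with n = 3 libraries a group. A gene was called changed at a Benjamini-Hochberg adjusted p under 0.05 over the 14419 genes with enough counts.

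In fibroblasts, serum, growth factors and mechanical tension switch on immediate early genes, whose transcripts appear and decay quickly. Several are driven by serum response factor, which reads actin dynamics and binds the CArG box, and others by YAP and TEAD proteins. Quiescent fibroblasts carry instead transcripts for matrix, complement and retinoid or lipid handling that differ between the alveolar and the adventitial niches of the lung. Macrophages, which can persist in such cultures, make C1q themselves.

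Between 48 h and 72 h, 472 genes were called changed, 3.27% of those tested. Of these, 223 were higher at 72 h (1.55%) and 249 lower (1.73%). The counts of list members called below are to be read against these shares of all genes tested. Counts at an unadjusted p under 0.05 in edgeR have another background, 2238 of the 14419 genes tested, both directions together. The largest named falls included the genes of secreted matricellular proteins (Ccn1, Ccn2) and of immediate early transcription factors (Fos, Atf3, Egr1). The largest named rises included the thioredoxin-binding protein gene Txnip, the nuclear RNA Neat1, several macrophage transcripts (Mrc1, Trem2, Tyrobp) and the matrix gene Dpt. The rule for naming rises and falls required libraries that did not overlap between the 2 times. For genes named by that rule, a lack of overlap is therefore no separate result. The median difference over all genes tested was 0.01. Among called genes, 35 rises and 59 falls were at least 2-fold. The 3 libraries of 72 h lay wholly above or wholly below the 3 of 48 h for 3340 genes (23.2%). Leaving out any 1 of the 6 libraries lowered the 472 calls to between 280 (without the second library of 48 h) and 312 (without the first of 72 h), with 56.1 to 61.9% of the 472 genes still called.

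**Figure D1:**
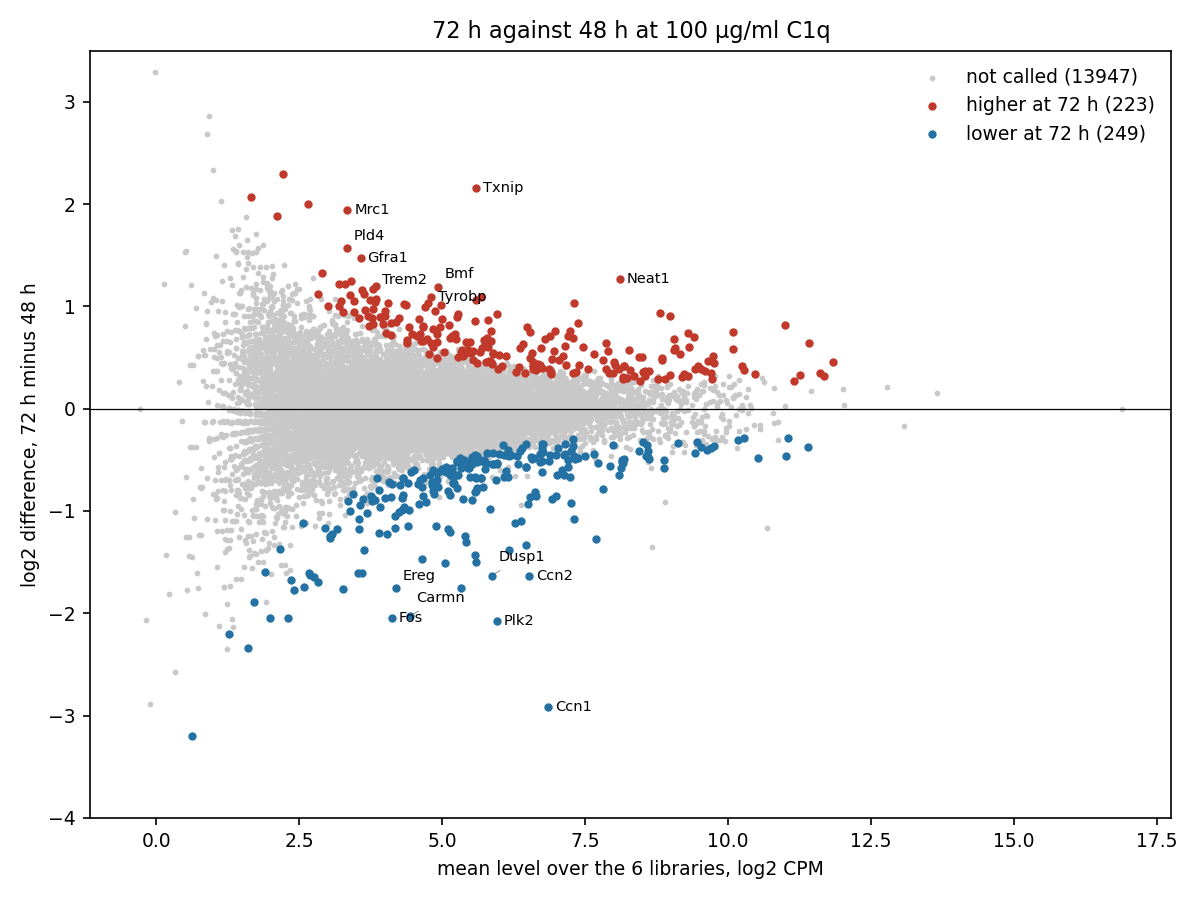
Each point is 1 tested gene. The x axis gives the mean level over the 6 libraries in log2 CPM, the y axis the log2 difference of 72 h minus 48 h at 100 µg/ml. Red points are the 223 genes called higher and blue points the 249 called lower; the largest rises and falls chosen by the naming rule carry their names, among which Ccn1 is lowest at -2.92 and Txnip highest at 2.16.

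Ccn1, which encodes a matricellular protein induced by YAP and by serum response factor (GRCm38.p6 chromosome 3, 145646971 to 145649985), showed the largest fall among genes that met the naming rule. It stood at 316, 316 and 315 CPM at 48 h and 39.03, 42.1 and 43.8 CPM at 72 h. The 2 groups were far apart and each was tight, with a 7.57-fold lower level at 72 h and a log2 difference of -2.92 ± 0.15 (adjusted p = 2.83e-19). Ccn2, its relative also known as connective tissue growth factor, stood at 177, 156 and 151 CPM at 48 h and 53.7, 53.4 and 48.9 CPM at 72 h, a difference of -1.63 ± 0.12 (adjusted p = 1.38e-13). Thbs1, the matricellular thrombospondin gene, fell from 358, 322 and 285 CPM to 134, 124 and 139.8 CPM, by 1.28 ± 0.11 on the log2 scale. All 3 libraries of 72 h lay below all 3 of 48 h for each of these genes. The naming rule required this of Ccn1 and Ccn2.

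Most immediate early genes fell. Of the 24 on the list, all tested, 17 were called lower and 0 higher, and the median difference was -1.13 (over all genes tested, 1.73% were called lower and the median was 0.01). Fos, which pairs with Jun proteins to form AP-1 (chromosome 12, 85473890 to 85477274), stood at 34.7, 29.9 and 36.4 CPM at 48 h and 8.11, 7.402 and 8.85 CPM at 72 h. The groups lay far apart, and the difference was -2.05 ± 0.19 (adjusted p = 6.50e-11). Plk2, a polo-like kinase gene with early serum induction that was not on this list (chromosome 13, 110395044 to 110400844), stood at 129, 114 and 136 CPM at 48 h and 29.4, 32.3 and 27.5 CPM at 72 h, a difference of -2.08 ± 0.12 (adjusted p = 4.08e-18). Egr1, a zinc-finger factor, stood at 117, 109.8 and 119 CPM at 48 h and 55.8, 38.95 and 39.1 CPM at 72 h, with the first library of 72 h above the other two, and differed by -1.38 ± 0.12 (adjusted p = 9.66e-12). Jun, the AP-1 partner of Fos, fell from 125, 127 and 148 CPM to 76.03, 74.8 and 69.9 CPM, a difference of -0.86 ± 0.11.

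Other members of the list fell by similar amounts. The phosphatase gene Dusp1, which ends MAP kinase signalling, differed by -1.63 ± 0.16, the stress factor gene Atf3 by -1.61 ± 0.27, Ier2 by -1.51 ± 0.16, the antiproliferative Btg2 by -1.33 ± 0.12 and Egr2 by -1.22 ± 0.22. The orphan nuclear receptor genes Nr4a1 and Nr4a3 differed by -1.61 ± 0.36 and -2.04 ± 0.38. Krüppel-like factor genes fell too, Klf6 by 1.08 ± 0.11 and Klf4 by 0.92 ± 0.12. Myc and Dusp5 were called lower at -1.18 ± 0.33 and -1.25 ± 0.35, calls kept in only 1 of the 6 fits that left out a library. Among the 7 members not called were Fosb at -2.01 ± 0.83, Fosl1 at -0.82 ± 0.40 and Junb at -0.40 ± 0.14. Without 1 library at a time, 14 to 16 of the 24 were called lower. No member was higher at an unadjusted p under 0.05 in edgeR, and DESeq2 called 17 lower and 0 higher. The 24 genes together held 0.178 to 0.198% of counts in the 48 h libraries and 0.0999 to 0.11% in those of 72 h, against 0.115% in untreated cells. At 2 h their mean share was higher still, at 0.221% for 100 µg/ml and 0.249% and 0.307% for 1 and 10 µg/ml.

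For these genes the 48 h libraries were high against 24 h as well as against 72 h. At 100 µg/ml, Ccn1 averaged 137 ± 7.83 CPM (mean ± SD, n = 3) in untreated cells, 83.99 ± 8.98 at 2 h, 59.7 ± 6.43 at 24 h, 316 ± 0.547 at 48 h and 41.6 ± 2.42 at 72 h. Fos averaged 15.1 ± 0.999 CPM in untreated cells and 11.4 ± 1.28, 33.7 ± 3.34 and 8.12 ± 0.726 at 24, 48 and 72 h. Of the 24 immediate early genes, 18 had all 48 h libraries above all libraries of 24 h and 72 h at this dose, a pattern held by 3.61% of all genes tested. At 1 and 10 µg/ml, in other libraries, 21 and 17 of the 24 did so, against 4.15% and 4.83% of all genes. The comparisons of 48 h with 24 h and with 72 h share the 48 h libraries, so these counts describe 1 set of libraries per dose.

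**Figure D2:**
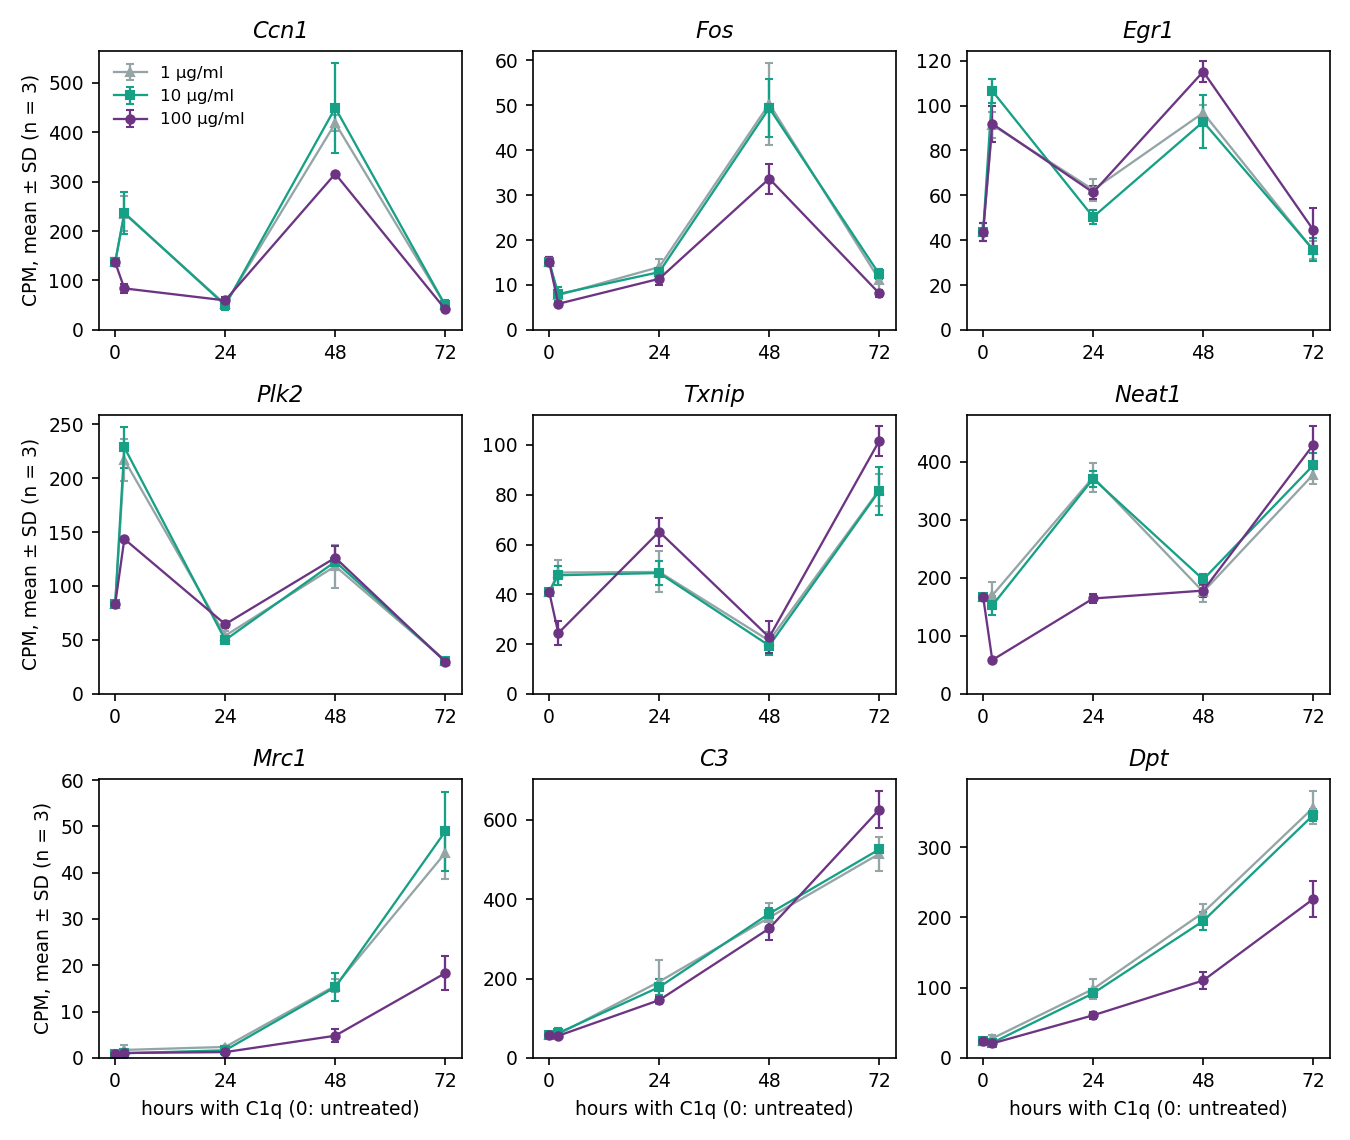
Mean CPM ± SD (n = 3 libraries a point) of 9 genes against hours with C1q, with the untreated group at 0 h shared by the 3 doses. Ccn1, Fos and Egr1 were higher at 48 h than at 24 h or 72 h at all 3 doses, Txnip was lowest at 48 h among the times from 24 h on, and Mrc1, C3 and Dpt were higher at 72 h than at 48 h at all 3 doses.

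The promoters of the 3 largest named falls are shown to set their letters beside these values. They are the 250 bases before the RefSeq start (GRCm38.p6) of each gene, with matches to the searched motifs in capitals. In Ccn1 these are CATTCC, the TEAD motif GGAATG read on the other strand, and TATAAA, the TATA box. In Plk2 they are TGACGTCA, the cyclic AMP response element (CRE), and in Fos they are TATAAA.
Ccn1 (chr3:145649986-145650235, minus strand): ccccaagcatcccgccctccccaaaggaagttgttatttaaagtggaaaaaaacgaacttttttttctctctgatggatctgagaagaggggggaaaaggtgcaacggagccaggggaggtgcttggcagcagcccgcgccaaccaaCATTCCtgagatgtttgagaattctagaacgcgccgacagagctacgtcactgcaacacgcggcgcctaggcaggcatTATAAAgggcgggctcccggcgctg
Plk2 (chr13:110394794-110395043, plus strand): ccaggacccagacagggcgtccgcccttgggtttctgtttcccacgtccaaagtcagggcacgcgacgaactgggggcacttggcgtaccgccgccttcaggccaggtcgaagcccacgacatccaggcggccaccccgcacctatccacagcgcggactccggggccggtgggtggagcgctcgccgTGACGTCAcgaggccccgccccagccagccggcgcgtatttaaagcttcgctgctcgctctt
Fos (chr12:85473640-85473889, plus strand): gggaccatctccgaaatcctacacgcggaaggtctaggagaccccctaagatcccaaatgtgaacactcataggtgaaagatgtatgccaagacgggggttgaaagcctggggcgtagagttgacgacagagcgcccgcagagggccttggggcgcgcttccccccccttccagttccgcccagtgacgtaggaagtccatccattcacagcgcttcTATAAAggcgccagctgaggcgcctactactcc

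Motifs were counted on both strands in 300 bases, from 250 before to 50 after the start. Entries matched 190 of the 249 falls, 170 of the 223 rises and 11009 of the 14419 tested genes, and 1 window a gene was read. The CArG box was in 13 of the 190 falls (6.84%), 3 of the 170 rises (1.76%), 1.32% of tested genes with an entry and 1.57% of the 27025 genes in the promoter table. The CRE was in 11 falls (5.79%), 2 rises (1.18%), 3.07% of tested genes and 1.88% of the table. The E-box CACGTG was in 15.3% of falls, 7.06% of rises, 9.92% of tested genes and 7.24% of the table. TEAD's GGAATG was in 16.8% of falls, 11.8% of rises, 12.3% of tested genes and 14.6% of the table, and the TATA box in 15.8%, 12.4%, 7.72% and 14.2%. The AP-1 motif TGANTCA was in 4.21% of falls, 6.47% of rises, 5.05% of tested genes and 7.93% of the table, and the STAT motif TTCNNNGAA in 5.79%, 8.82%, 6.91% and 8.47%. Of the 24 immediate early genes 19 had an entry, of which 1 held a CArG box (5.26%) and 0 the AP-1 motif. The metal response core TGCNCNC was in 61.6%, 56.5%, 59.6% and 50.4%, too common to mark in the sequences. The CArG and TEAD motifs were added after the falling genes were known. These shares are descriptions without a test, and a match is not a shown binding site.

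The 13 falls with a CArG box included Srf, which encodes serum response factor itself, the LIM protein gene Fhl2, the actin gene Actg1, the small GTPase gene Rnd3 and the phosphatase gene Dusp5. The others were Glipr2 (-0.91), Prkab2 (-0.74), Zfp644 (-0.58), Fermt2 (-0.45), Eif2s1 (-0.45), Ston1 (-0.45), Lima1 (-0.34) and Cnn2 (-0.33). In Prkab2 the box lay past the start. Stretches of 50 bases show the boxes of Srf, Dusp5, Fhl2, Rnd3 and Actg1 in capitals, in promoters of genes that fell together. Srf and Dusp5 hold 2 boxes each, which in Dusp5 abut without a base between them.
Srf (chr17:46556215-46556264, minus strand): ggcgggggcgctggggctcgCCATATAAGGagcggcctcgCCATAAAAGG
Dusp5 (chr19:53529043-53529092, plus strand): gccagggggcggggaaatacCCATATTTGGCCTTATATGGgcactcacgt
Fhl2 (chr1:43196828-43196877, minus strand): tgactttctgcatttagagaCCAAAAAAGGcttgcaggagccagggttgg
Rnd3 (chr2:51149182-51149231, minus strand): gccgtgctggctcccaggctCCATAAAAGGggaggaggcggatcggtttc
Actg1 (chr11:120348556-120348605, minus strand): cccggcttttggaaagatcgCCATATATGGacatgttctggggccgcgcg
Srf stood at 59.4, 68.03 and 70.7 CPM at 48 h and 23.3, 29.6 and 27.03 CPM at 72 h, a difference of -1.30 ± 0.14 (adjusted p = 5.89e-09). Fhl2 stood at 54.7, 50.3 and 53.3 CPM at 48 h and 20.3, 20.3 and 27.96 CPM at 72 h and differed by -1.21 ± 0.16. Rnd3 differed by -0.98 ± 0.15. Actg1, cytoplasmic gamma-actin, stood at 1729.6, 1706 and 1772 CPM at 48 h and 1243, 1206 and 1270.2 CPM at 72 h, a smaller difference of -0.49 ± 0.09 with no overlap; reads from its many processed pseudogenes may be split. The boxes were seen in genes whose falls ranged from -1.30 to -0.33.

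Of 18 contractile genes of myofibroblasts tested, 3 were called lower, against 1.73% of all genes tested (Fhl2, Actg1 and Tgfb1i1, an adaptor of focal adhesions, at -0.46 ± 0.11) and 0 higher, with a median of -0.10. Acta2, smooth muscle actin, stood at 793, 820.0 and 825 CPM at 48 h and 716, 797 and 806 CPM at 72 h, and the groups overlapped. At an unadjusted p under 0.05 in edgeR, 7 of the 18 were lower and 2 higher, and DESeq2 called 3 lower and 0 higher. Over all 14419 genes tested, 2238 passed that unadjusted threshold in either direction. The list held 0.697 to 0.718% of counts at 48 h and 0.599 to 0.653% at 72 h, without overlap. Of 19 genes of the TGF-beta list, 5 were called lower (1.73% over all genes) and 0 higher, with a median of -0.13. Besides Ccn1 and Ccn2 these included the feedback genes Skil at -0.67 ± 0.12 and Smad7 at -0.51 ± 0.15; the call of Smad7 was kept in only 1 of the 6 fits that left out a library. Among 18 genes of the BMP list, the 2 called were both secreted antagonists and both lower, Fst (follistatin) at -0.93 ± 0.19 and Grem1 (gremlin) at -0.70 ± 0.17; without the third library of 72 h 1 of them was called.

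Of 29 growth factor and receptor genes tested, 4 were called higher and 1 lower (1.55% and 1.73% over all genes), with a median of -0.04. The fall was Ereg. This epidermal growth factor family ligand stood at 37.3, 39.01 and 21.9 CPM at 48 h and 8.11, 11.7 and 8.85 CPM at 72 h, with the third library of 48 h below the other two and still above all of 72 h, a difference of -1.75 ± 0.21 (adjusted p = 6.86e-08). The falls that follow are on no list of signalling genes. Bdnf, the neurotrophin gene, stood at 79.9, 76.6 and 75.7 CPM at 48 h and 23.8, 29.996 and 31.7 CPM at 72 h and differed by -1.43 ± 0.14. Carmn, a long non-coding RNA of smooth muscle and cardiac cells, gave 41.5, 38.1 and 45.8 CPM at 48 h and 10.6, 8.18 and 12.1 CPM at 72 h, a difference of -2.03 ± 0.23 (adjusted p = 2.36e-08). Irak2, a kinase of interleukin-1 and Toll-like receptor signalling, differed by -1.50 ± 0.16, the cytokine gene Tnfsf15 by -1.47 ± 0.19 and the growth factor inhibitor Spry1 by -1.39 ± 0.25. Has2, the hyaluronan synthase gene, had low counts (5.78, 3.63 and 4.98 CPM at 48 h and 1.01, 1.17 and 0.466 CPM at 72 h) and differed by -2.34 ± 0.43.

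Inflammatory genes went both ways. Of 25 tested on the list of cytokines, chemokines and NF-kB genes, 5 were called lower and 3 higher (1.73% and 1.55% over all genes). The median was -0.01. The 5 were Ptgs2, the inducible cyclooxygenase, at -1.63 ± 0.34, the interleukin-6 family genes Lif and Il6 at -1.17 ± 0.23 and -1.17 ± 0.34, and the monocyte chemokines Ccl7 and Ccl2 at -0.88 ± 0.18 and -0.67 ± 0.15. Il6 was lost whichever of the 6 libraries was left out, and without the third library of 48 h 3 of the 5 were called. Cxcl13, a chemokine for B cells, rose from 15.2, 22.7 and 16.9 CPM to 44.1, 38.2 and 31.2 CPM, by 1.03 ± 0.22 (adjusted p = 0.00252). Ccl9 and Icam1 were the other two rises, at 0.71 ± 0.19 and 0.39 ± 0.10. Left-out libraries reduced the 3 rises to 1 without the first or second library of 48 h or the third of 72 h. Of 30 interferon-induced genes tested, 0 were called in either direction by edgeR or DESeq2 and 0 had an unadjusted p under 0.05 in edgeR; their median was -0.19.

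Among the rises, Txnip, which binds thioredoxin and limits glucose uptake (chromosome 3, 96557957 to 96561857), showed the largest difference among genes that met the naming rule. It stood at 27.9, 24.9 and 15.4 CPM at 48 h and 108, 98.2 and 98.3 CPM at 72 h. Every library of 72 h was far above the highest of 48 h, a difference of 2.16 ± 0.15 (adjusted p = 1.47e-14). Txnip averaged 65.2 ± 5.63 CPM (mean ± SD, n = 3) at 24 h, above its 48 h level. Neat1, the long non-coding RNA of nuclear paraspeckles, stood at 167, 178 and 189 CPM at 48 h and 430.3, 460.1 and 397 CPM at 72 h, a difference of 1.27 ± 0.09 (adjusted p = 3.36e-14). Bmf, a BH3-only gene of cell death, rose from 17.9, 20.4 and 20.4 to 50.7, 44.4 and 40.1 CPM, and Gfra1, a receptor for glial cell line-derived neurotrophic factor, from 6.83, 7.71 and 5.48 to 18.2, 14.02 and 24.2 CPM. Their differences were 1.19 ± 0.20 and 1.47 ± 0.29. Fancg, a DNA repair gene, and Rhof, a small GTPase gene, rose by 1.03 ± 0.23 and 1.03 ± 0.23. None of these genes overlapped between the groups, which the naming rule required.

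**Figure D3:**
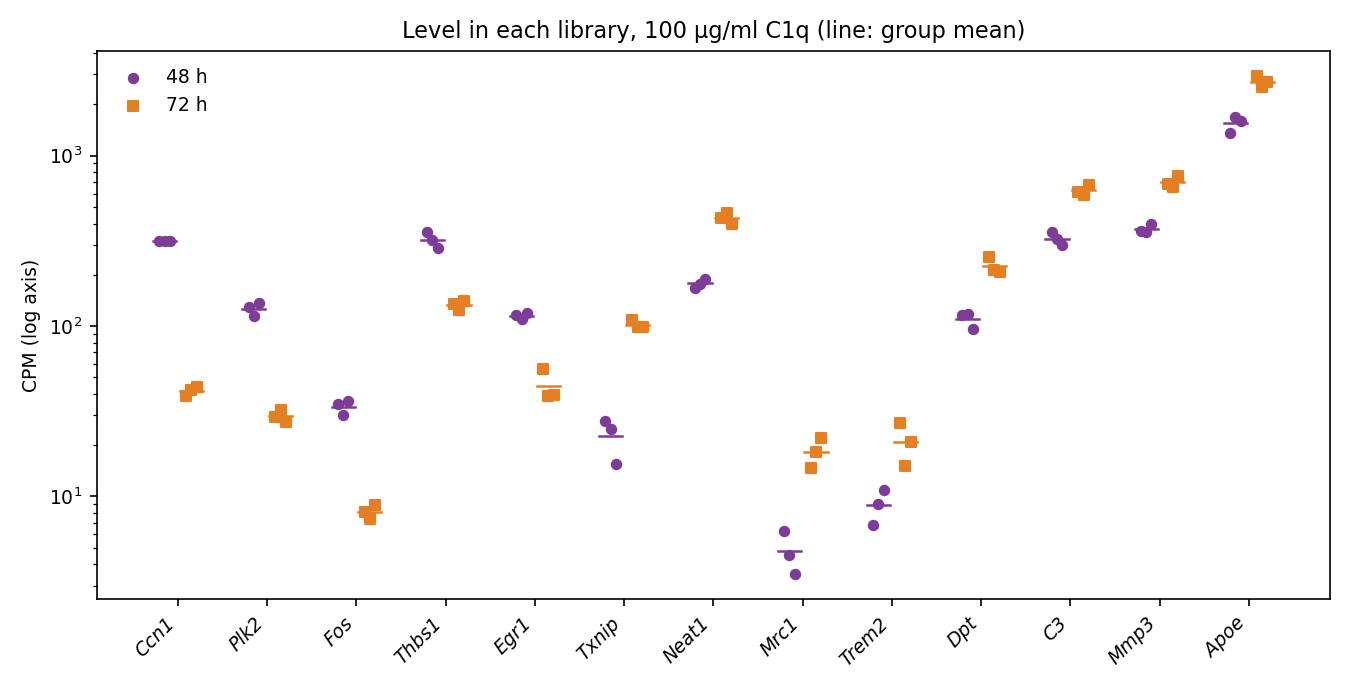
CPM on a log axis for 13 genes in each of the 3 libraries of 48 h (purple circles) and the 3 of 72 h (orange squares) at 100 µg/ml; the lines are group means. For all 13 genes the 2 groups do not overlap, from Ccn1 (316, 316 and 315 CPM against 39.03, 42.1 and 43.8 CPM) to Apoe (1367, 1684 and 1589 CPM against 2949, 2535 and 2692 CPM). The naming rule required this of Ccn1, Plk2, Fos, Egr1, Txnip, Neat1, Mrc1, Trem2 and Dpt. Thbs1, C3, Mmp3 and Apoe were chosen among called genes, so the lack of overlap is no separate result. Of all genes tested, 23.2% did not overlap.

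The 3 largest named rises were Txnip, Mrc1 and Pld4, and their promoters are shown to the same length as those of the falls. Capitals mark CCAAT or its reverse ATTGG, the NF-Y motif, in Txnip and Mrc1; the loose glucocorticoid motif ACANNNTGT in Txnip; and TTTGAA, the cell cycle homology region, in Mrc1. Pld4 held no match to the marked motifs in the stretch printed.
Txnip (chr3:96557707-96557956, plus strand): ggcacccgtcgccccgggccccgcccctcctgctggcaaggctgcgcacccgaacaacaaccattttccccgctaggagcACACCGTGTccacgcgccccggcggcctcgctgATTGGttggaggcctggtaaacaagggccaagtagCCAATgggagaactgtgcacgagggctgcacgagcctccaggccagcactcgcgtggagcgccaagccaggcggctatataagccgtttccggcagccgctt
Mrc1 (chr2:14229164-14229413, plus strand): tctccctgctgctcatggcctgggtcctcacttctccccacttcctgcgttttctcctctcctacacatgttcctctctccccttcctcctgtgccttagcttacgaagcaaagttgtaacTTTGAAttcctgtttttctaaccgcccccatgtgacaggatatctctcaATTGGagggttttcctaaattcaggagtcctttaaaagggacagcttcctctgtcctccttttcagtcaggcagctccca
Pld4 (chr12:112760405-112760654, plus strand): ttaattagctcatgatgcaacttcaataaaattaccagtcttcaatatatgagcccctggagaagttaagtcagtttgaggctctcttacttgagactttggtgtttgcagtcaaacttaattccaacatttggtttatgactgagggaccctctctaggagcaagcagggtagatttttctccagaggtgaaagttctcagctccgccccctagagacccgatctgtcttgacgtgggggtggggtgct
The motif TTNNGNAA, a loose form of the C/EBP site, was too common to mark, at 28.9% of falls, 41.2% of rises, 31.9% of tested genes and 40.7% of the table. The NF-Y motif was in 41.6%, 36.5%, 39.1% and 37.9%, the cell cycle motif in 12.6%, 12.9%, 12.8% and 18.1%, and the loose glucocorticoid motif in 2.63%, 6.47%, 4.19% and 6.9%.

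Most macrophage and other myeloid transcripts tested rose. Of 22 tested, 14 were called higher (1.55% over all genes) and 0 lower, and the median difference was 0.81. Of the 22 differences, 19 were positive, against 7409 of 14419 over all genes tested. Cx3cr1 at -0.66 ± 0.42, Cd52 at -0.12 ± 0.36 and Ctss at -0.07 ± 0.16 were negative and not called. Itgam, at 0.28 ± 0.27, was not called either. Mrc1, the mannose receptor, stood at 6.31, 4.54 and 3.49 CPM at 48 h and 14.7, 18.3 and 21.9 CPM at 72 h, a difference of 1.94 ± 0.29 (adjusted p = 1.08e-05). Pld4, an endolysosomal nuclease, rose from 5.26, 3.63 and 7.47 to 15.2, 17.5 and 15.4 CPM. Trem2, a lipid-sensing receptor, rose from 6.83, 9.07 and 10.96 to 26.9, 15.2 and 20.97 CPM, and its adaptor Tyrobp from 15.2, 26.8 and 14.9 to 55.2, 35.8 and 33.5 CPM. All 3 libraries of 72 h lay above those of 48 h for these 4 genes, which the naming rule required, and all 4 were at low counts.

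The genes of C1q itself were on this list. C1qb, the B chain, stood at 40.99, 44.9 and 48.3 CPM at 48 h and 99.8, 75.2 and 82.01 CPM at 72 h, and averaged 8.03 ± 2.95 CPM (mean ± SD, n = 3) in untreated cells. Its difference was 0.93 ± 0.14 (adjusted p = 6.22e-06). C1qa and C1qc, the other two chains, differed by 0.88 ± 0.16 and 0.65 ± 0.16. The Fc receptor genes Fcgr3 and Fcer1g differed by 1.02 ± 0.18 and 0.64 ± 0.15, the lysosomal Cd68 by 0.95 ± 0.18 and the pore protein gene Mpeg1 by 0.86 ± 0.13. Lyz2, lysozyme, stood at 429, 433 and 396 CPM at 48 h and 740.0, 596 and 683 CPM at 72 h, a difference of 0.68 ± 0.09; Lyz1, at 1.095 ± 0.17, is a near-identical copy, so that their separate counts are uncertain. Ptprc, which encodes the CD45 protein used in the depletion, stood at 4.204, 5.896 and 4.48 CPM at 48 h and 9.12, 7.402 and 9.32 CPM at 72 h, and did not pass the test (adjusted p = 0.162).

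The whole list held 0.0808 to 0.0833% of counts in the 48 h libraries and 0.124 to 0.142% in those of 72 h, against 0.0367 ± 0.0016% (mean ± SD, n = 3) in untreated cells. At the lower doses, in libraries not used above, its share went from 0.0913% and 0.0925% of counts at 48 h to 0.158% and 0.180% at 72 h for 1 and 10 µg/ml. In such bulk samples more cells of a type and more of its RNA per cell cannot be told apart. With 1 library left out, 11 to 14 of the 22 were called higher. At an unadjusted p under 0.05, 0 were lower in edgeR, and DESeq2 called 13 higher and 0 lower.

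Markers of other cell types held small shares of the counts. Over all genes tested, 1.55% were called higher and 1.73% lower. Lymphocyte and erythroid markers had 0 tested genes, and Ms4a1, Nkg7 and Alas2 had 0 counts in all 6 libraries. Epithelial markers held 0.0198 to 0.0219% of counts at 48 h and 0.0145 to 0.0172% at 72 h. Of 14 tested, 3 were called lower (Epcam at -0.96 ± 0.20, and the keratin genes Krt18 and Krt8 at -0.87 ± 0.20 and -0.68 ± 0.20) and 0 higher; 1 was called without the second library of 72 h, and 2 without the first or second of 48 h or the third of 72 h. Endothelial markers held 0.0072 to 0.0098% at 48 h and 0.0098 to 0.0117% at 72 h. Of 12 tested, the low-count genes Tie1 and Egfl7 were called higher; neither was called without the first library of 48 h or of 72 h, and 1 was called without the second or the third of 48 h or the third of 72 h. Of 10 mural and 11 mesothelial markers tested, 0 were called by edgeR or DESeq2; at an unadjusted p under 0.05 in edgeR, 2 mural and 1 mesothelial marker passed.

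Fibroblast markers rose in part, where 1.55% of all genes tested were called higher. Of 12 general fibroblast markers, 4 were called higher (Lum, Fbln1, Dcn and Col3a1) and 0 lower, and the list held 0.949 to 0.994% of counts at 48 h and 1.07 to 1.22% at 72 h. Adventitial markers gave 5 rises and 0 falls of 18, with a median of 0.17. Of the 18 differences, 13 were positive, against 7409 of 14419 over all genes tested. Mfap5 (-0.305), Ly6c1 (-0.30), Ccl11 (-0.28), Igfbp6 (-0.17) and Adamts5 (-0.14) were negative and not called. Pi16, Dpp4 and Cd34 were not called either. Dpt, dermatopontin, stood at 117, 117 and 96.6 CPM at 48 h and 255, 215 and 209 CPM at 72 h, a difference of 1.04 ± 0.11 (adjusted p = 1.55e-09). Gsn, the actin-severing gelsolin, stood at 2279.8, 2104 and 2170.5 CPM at 48 h and 3173, 3503 and 3531 CPM at 72 h, a difference of 0.64 ± 0.09. Igfbp4 and the Wnt inhibitor Sfrp1 differed by 0.70 ± 0.09 and 0.39 ± 0.08, and Clec3b, tetranectin, by 0.32 ± 0.09, a call lost when any 1 of the 6 libraries was left out.

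Alveolar fibroblast markers gave 4 rises (1.55% over all genes) and 0 falls of 18, with a median of 0.24. Of the 18 differences, 16 were positive, against 7409 of 14419 over all genes tested. Wnt2 at -0.61 ± 0.21 and Tcf21 at -0.11 ± 0.11 were negative and not called. Mfap4, a microfibril-associated protein, stood at 787, 836 and 886 CPM at 48 h and 1482, 1329 and 1407 CPM at 72 h, a difference of 0.75 ± 0.08 (adjusted p = 5.97e-09). The carboxylesterase gene Ces1d rose by 0.59 ± 0.11, the lymphangiogenic growth factor Vegfd by 0.49 ± 0.08 and Inmt, an N-methyltransferase of lung fibroblasts, by 0.37 ± 0.09.

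**Figure D4:**
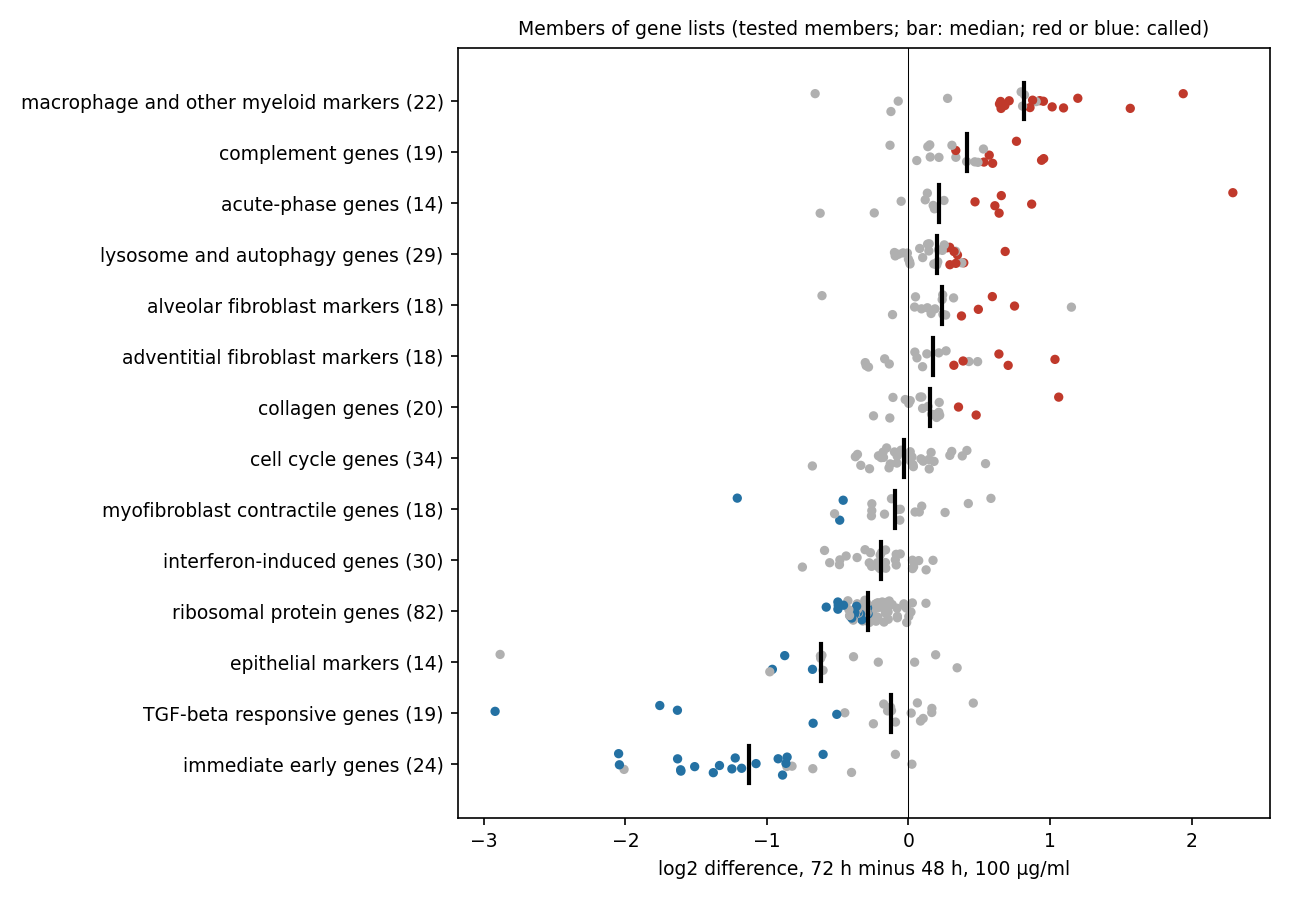
Each row is a gene list with its number of tested members in brackets; points are the members' log2 differences of 72 h minus 48 h at 100 µg/ml, red if called higher, blue if called lower and grey if not called, and the black bar is the list's median. The bar lies at -1.13 for immediate early genes and at 0.81 for macrophage markers, while the median over all genes tested was 0.01; vertical scatter within a row has no meaning.

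Of 19 complement genes tested, 7 were called higher, against 1.55% of all genes tested, and 0 lower. The other 12 did not pass the test, and the median was 0.41. Of the 19 differences 18 were positive, against 7409 of 14419 over all genes tested. C3, the central component, stood at 356, 324 and 298 CPM at 48 h and 614, 587 and 678 CPM at 72 h, a difference of 0.94 ± 0.12 (adjusted p = 1.78e-07). C4b differed by 0.76 ± 0.13, the proteases C1s1 and C1ra by 0.57 ± 0.09 and 0.53 ± 0.10, the terminal component C7 by 0.96 ± 0.25, and Serping1, the C1 inhibitor, by 0.33 ± 0.08. C1s1 stood at 233, 244 and 277 CPM at 48 h and 377, 380.2 and 364 CPM at 72 h, without overlap. With each library left out in turn, 6 of the 7 were called.

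Acute-phase genes gave 6 rises (1.55% over all genes) and 0 falls of 14 tested, with a median of 0.22. All 6 rises were called on leaving out any 1 library. Serpina3n, a serine protease inhibitor, stood at 676, 652 and 714 CPM at 48 h and 897, 919 and 1014 CPM at 72 h, a difference of 0.47 ± 0.09. Haptoglobin (Hp) rose by 0.61 ± 0.11, the lipopolysaccharide-binding protein gene Lbp by 0.66 ± 0.14, the metalloreductase Steap4 by 0.64 ± 0.13 and the cytokine feedback gene Socs3 by 0.87 ± 0.14. Lrg1 rose from a low level (2.102, 0.907 and 1.99 CPM) to 7.096, 8.57 and 8.85 CPM, a difference of 2.29 ± 0.43.

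Matrix genes rose for the most part where they were called. The shares called over all genes were 1.55% higher and 1.73% lower. Of 20 collagen genes, 3 were called higher and 0 lower, with a median of 0.15. Col28a1 rose from 35.7, 32.7 and 30.4 to 70.96, 72.5 and 62.4 CPM, by 1.06 ± 0.13. Col3a1, a fibrillar collagen, stood at 2875, 2742 and 2641 CPM at 48 h and 3378, 3434 and 3739.9 CPM at 72 h, a difference of 0.35 ± 0.08, and Col6a1 differed by 0.48 ± 0.11. Of 30 glycoprotein and elastic fibre genes 6 were called higher, among them Fbln1, Efemp1 and Fbln5 of the fibulin family at 0.71 ± 0.10, 0.58 ± 0.11 and 0.47 ± 0.10 and fibronectin (Fn1) at 0.59 ± 0.16; the 1 lower was Thbs1. Of 18 proteoglycan and hyaluronan genes 5 were called higher, among them Fmod, Lum and Dcn, small leucine-rich proteoglycans that bind collagen, at 0.84 ± 0.12, 0.80 ± 0.17 and 0.42 ± 0.08, and the 1 lower was Has2.

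Proteases and their inhibitors were called in both directions, 4 higher and 4 lower of 27 (1.55% and 1.73% over all genes). Mmp3, stromelysin, stood at 359, 356 and 399.5 CPM at 48 h and 679, 658 and 758 CPM at 72 h, a difference of 0.91 ± 0.08 (adjusted p = 6.50e-11). Timp2, Mmp2 and Adamts2 were the other rises, at 0.38 ± 0.10, 0.35 ± 0.10 and 0.37 ± 0.10, and with any 1 library left out 1 or 2 genes of the list were called higher. The falls included Plaur, the urokinase receptor, at -0.87 ± 0.18, Adamts1 at -0.66 ± 0.12 and Adamts12 at -0.59 ± 0.15.

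Apoe, the lipid carrier of lipoproteins and of macrophages, rose. It stood at 1367, 1684 and 1589 CPM at 48 h and 2949, 2535 and 2692 CPM at 72 h, a difference of 0.82 ± 0.08 (adjusted p = 7.78e-10). Lpl, lipoprotein lipase, and the fatty acid receptor Cd36 rose by 0.69 ± 0.10 and 0.73 ± 0.17. Apoe, Lpl and Cd36 were the 3 calls among 14 lipid storage and handling genes, with 0 lower. Over all genes, 1.55% were called higher. Of 14 iron handling genes, the ferroxidase Heph and the ferritin chain Fth1 were called higher at 0.81 ± 0.16 and 0.45 ± 0.09. Among the 4 rises of growth factor and receptor genes, Gas6, the ligand of TAM receptors, rose from 472, 475 and 518 to 797, 837 and 820.1 CPM, by 0.74 ± 0.09. Gdf10, Igfbp3 and Igfbp5 rose by 0.56 ± 0.13, 0.69 ± 0.20 and 0.45 ± 0.09; without the third library of 48 h 2 of these 4 rises were called.

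Lysosomal and autophagy genes gave 8 rises (1.55% over all genes) and 0 falls of 29, with a median of 0.20. Gpnmb rose by 0.68 ± 0.14, and the cathepsin genes Ctsb, Ctsz and Ctsd by 0.33 ± 0.07, 0.39 ± 0.09 and 0.29 ± 0.08. Macrophages also express these genes, as they do Apoe and Cd36, and the macrophage list rose between the same libraries; its part in them was not tested. With any 1 library left out, 2 to 5 genes of the list were called. The glycolysis and hypoxia list gave 4 rises and 0 falls of 24, with a median of 0.21, namely Ldha at 0.56 ± 0.10, Pkm at 0.53 ± 0.11, Eno1 at 0.52 ± 0.12 and Pgk1 at 0.42 ± 0.10; 2 were called without the second library of 48 h.

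Of 82 ribosomal protein genes tested, 18 were called lower (1.73% over all genes) and 0 higher. Of the 82 differences 78 were negative, and the median was -0.28. Over all 14419 genes tested, 7409 differences were positive and the median was 0.01. Rplp0, of the ribosomal stalk, stood at 2253, 2396 and 2413 CPM at 48 h and 2079.6, 1882 and 1834 CPM at 72 h, a difference of -0.29 ± 0.08 (adjusted p = 0.0283), and Rps29 differed by -0.58 ± 0.13. The 82 genes, with 2 more below the filter, held 6.00, 6.17 and 6.01% of counts at 48 h and 5.18, 4.95 and 5.05% at 72 h, without overlap, and 9.98 ± 0.34% (mean ± SD, n = 3) in untreated cells. With any 1 library left out, 4 to 10 genes of the list were called, while a fit of the 6 libraries alone called 57 and DESeq2 25. At an unadjusted p under 0.05, 61 were lower and 0 higher in edgeR. Reads from processed pseudogenes of these genes may be split between copies, so single members are uncertain.

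Of 34 cell cycle genes, 0 were called in either direction by edgeR or DESeq2, 2 had an unadjusted p under 0.05 in edgeR, and the median was -0.03. Of 25 cholesterol synthesis genes, 2 were called lower and 1 higher (1.73% and 1.55% over all genes). Insig1, which retains the sterol sensor in the endoplasmic reticulum, fell from 197, 158 and 175 to 99.3, 138 and 134 CPM, whereas Sqle, squalene epoxidase, rose from 57.8, 50.8 and 55.8 to 71.5, 74.02 and 68.96 CPM. The calls of Insig1 and Sqle were kept in 4 and 2 of the 6 fits that left out a library. Over all 14419 genes tested, 2238 had an unadjusted p under 0.05 in edgeR, in either direction. Of 10 tested genes described as C1q-binding receptors, 0 were called by edgeR or DESeq2 and 2 had an unadjusted p under 0.05. Genes of the unfolded protein response gave 0 calls of 20 by either tool, with 3 at an unadjusted p under 0.05, and fatty acid synthesis genes 0 of 12, with 6, all higher. Of 12 genes of MHC class I presentation 0 were called by either tool and 0 passed unadjusted. Among lists described above with calls in 1 direction, the genes at an unadjusted p under 0.05 in the other direction were 5 for the BMP list, 1 each for the TGF-beta, adventitial, alveolar and acute-phase lists, and 0 for the epithelial, endothelial, general fibroblast, collagen, complement, lipid, iron, lysosome and glycolysis lists; DESeq2 called 0 in those directions.

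The same time step at the lower doses was measured in 12 other libraries, 3 at each of 48 h and 72 h for 1 and for 10 µg/ml. Of the 472 genes called at 100 µg/ml, 451 (95.6%) had a difference of the same sign in the mean of the 2 lower doses, against 64.7% of all genes tested. Ccn1 differed by -3.13 ± 0.10 there, Fos by -2.08 ± 0.11, Txnip by 2.00 ± 0.11, Mrc1 by 1.59 ± 0.14 and C3 by 0.54 ± 0.08. The difference between doses was itself tested as the step at 100 µg/ml minus the mean step at 1 and 10 µg/ml. It was called for 11 genes (0.0763%), of which 8 were more positive at 100 µg/ml (0.0555%) and 3 more negative (0.0208%). Of these, 7 were also called in the step at 100 µg/ml. With 1 of the 18 libraries left out, 2 to 10 genes were called, the fewest without the second library of 48 h at 100 µg/ml. The count fell to 7 or fewer without any 1 of the 6 libraries at 100 µg/ml, the third of 1 µg/ml at either time, or the second or the third of 10 µg/ml at either time. DESeq2 called 29. The lists' medians at the lower doses were -1.21 for immediate early genes (-1.13 at 100 µg/ml), 0.95 for macrophage markers (0.81), 0.17 for complement genes (0.41), -0.10 for adventitial markers (0.17), -0.32 for cell cycle genes (-0.03) and -0.10 for ribosomal protein genes (-0.28). The differences between these medians were not tested. For the adventitial list the median and the summed level differed in sign at the lower doses: its share of counts went from 0.596% at 48 h to 0.676% at 72 h at 1 µg/ml, from 0.585% to 0.687% at 10 µg/ml and from 0.581% to 0.772% at 100 µg/ml (means of 3 libraries).

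**Figure D5:**
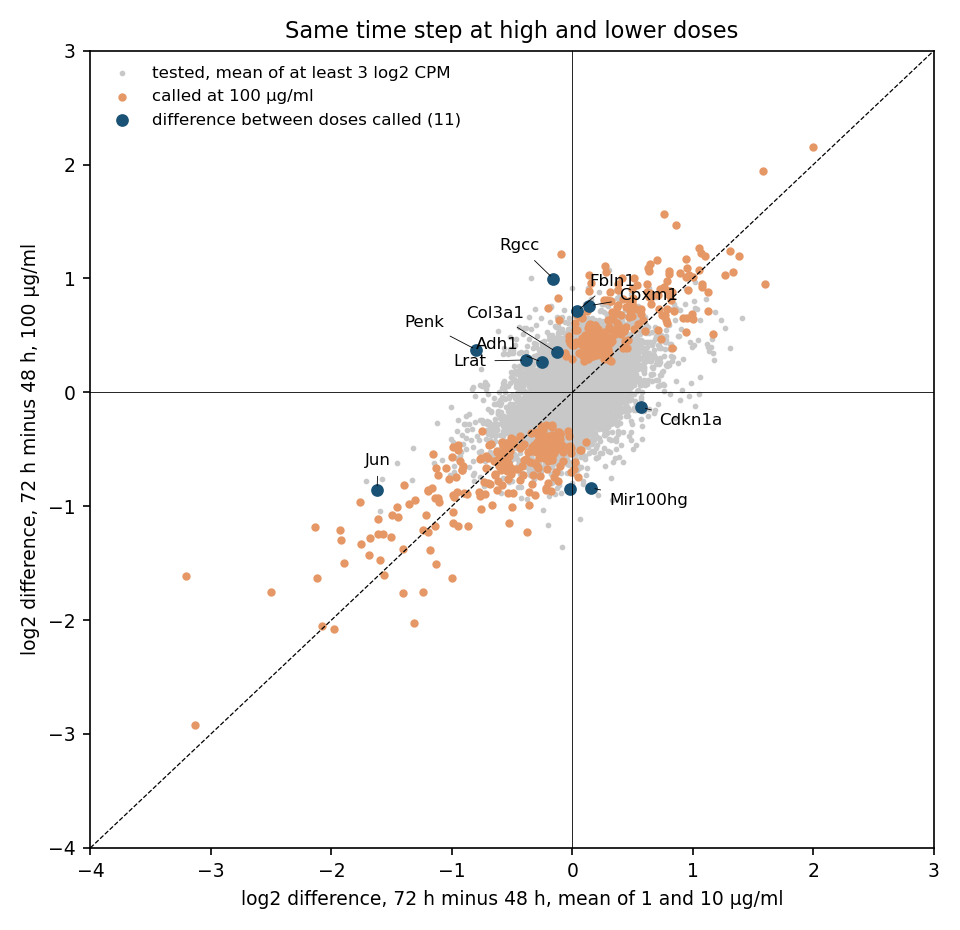
Each point is a gene with its log2 difference of 72 h minus 48 h as the mean of 1 and 10 µg/ml on the x axis and at 100 µg/ml on the y axis; the dashed line marks equal differences. Genes called at 100 µg/ml are orange, and the 11 genes whose difference between doses was called are dark blue, 10 of them with their names; genes with a mean under 3 log2 CPM are left out.

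Jun fell less at the high dose. Its step was -0.86 ± 0.11 at 100 µg/ml and -1.62 ± 0.07 at the lower doses, and the difference between them was 0.76 ± 0.13 (adjusted p = 0.00415). At 48 h Jun averaged 193 ± 7.12, 198 ± 21.1 and 133 ± 13.2 CPM (mean ± SD, n = 3) at 1, 10 and 100 µg/ml, and at 72 h 63.2 ± 3.13, 63.98 ± 0.772 and 73.6 ± 3.24 CPM. The doses lay further apart at 48 h than at 72 h.

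Cdkn1a, the p21 cell cycle inhibitor, stood at 293, 295 and 315 CPM at 48 h and 281, 273 and 269.8 CPM at 72 h at 100 µg/ml, without overlap but with a step of -0.13 ± 0.10 that was not called, whereas its step at the lower doses was 0.57 ± 0.07. The difference between doses was -0.71 ± 0.12 (adjusted p = 0.00415). It averaged 197 ± 16.1 and 197 ± 20.5 CPM at 48 h and 286 ± 24.3 and 299.7 ± 6.64 CPM at 72 h at 1 and 10 µg/ml. Jun and Cdkn1a were the 2 genes of the 11 called on leaving out each of the 18 libraries in turn.

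Matrix genes were among the 8 more positive at 100 µg/ml. Fbln1, fibulin-1, rose from 105, 109 and 129 to 174, 183 and 205 CPM at 100 µg/ml, while at 10 µg/ml it stood at 150.1, 170.2 and 166 CPM at 48 h and 164, 165 and 176 CPM at 72 h. The difference was 0.67 ± 0.12 (adjusted p = 0.00568). Col3a1 differed between doses by 0.48 ± 0.10, the secreted carboxypeptidase-like gene Cpxm1 by 0.62 ± 0.14, and Rgcc, a cell cycle regulator induced by complement, by 1.15 ± 0.23. Col3a1 and Cpxm1 were called on leaving out 3 and 2 of the 18 libraries and Rgcc on 12.

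Penk, the enkephalin precursor, stood at 24.2, 28.1 and 20.9 CPM at 48 h and 38.01, 31.6 and 26.1 CPM at 72 h, where the groups overlapped and the step of 0.37 ± 0.20 was not called; at the lower doses its step was -0.80 ± 0.12, and the difference was 1.17 ± 0.23 (adjusted p = 0.0249). The retinoid enzymes Adh1 and Lrat differed between doses by 0.51 ± 0.10 and 0.67 ± 0.14, each with an uncalled positive step at 100 µg/ml and a called fall at the lower doses (-0.25 ± 0.06 and -0.39 ± 0.08). Mir100hg, a host transcript of microRNAs, fell at 100 µg/ml from 32.1, 40.4 and 41.8 to 19.8, 22.98 and 20.97 CPM, and stood at 22.3, 28.96 and 26.3 and 27.4, 32 and 29.5 CPM at 48 h and 72 h of 10 µg/ml, a difference between doses of -0.99 ± 0.18 (adjusted p = 0.00568). DESeq2 gave 5 of the 11 genes an adjusted p under 0.05 and no adjusted p to the other 6.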

How the data were processed

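The 39 libraries were 5′-end poly(A) RNA libraries of cultured mouse lung fibroblasts. The authors deposited 1 table of raw counts for 30012 gene names, with no normalization; per the submitters' processing notes, cutadapt 2.1.0, Bowtie2 2.4.2 and GRCm38 were used, and the counting tool and its use of strand are not stated in any source used here. Groups came from the dose and time labels. All 39 libraries entered 1 edgeR 4.0.16 fit (R 4.3.3): TMM scaling, filterByExpr by group (14419 genes, 99.4% of counts), group means, glmQLFit and glmQLFTest, with Benjamini-Hochberg adjustment over all tested genes. The standard error is the log2 difference divided by the square root of F. The scripts were tested on simulated data. Replicate numbers follow accession order and pair nothing. Replicates differed by more than sampling noise (chi-square per degree of freedom 1.31 to 2.35).

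The named genes were the 15 largest rises and 15 largest falls that had an adjusted p under 0.05, a mean of at least 3 log2 CPM (prior count 2), no overlap between groups and a call kept without each of the 6 libraries, and up to 8 genes with the smallest p between doses; members of the fixed gene lists, other genes called between doses and genes with a CArG box were named besides. Some genes that meet the rule are not reported here. The comparison, lists and rule were chosen with earlier results of these data known. Promoter sequences and gene positions are RefSeq's (GRCm38.p6, in Python 3.11.15 with matplotlib 3.10.9 for plots); 14136 of the 14419 tested names matched a RefSeq symbol. Alternatives were DESeq2 1.42.0, relative log expression factors in edgeR, no filter, a robust fit, thinned counts, the compared libraries alone, the table without LOC118568312, stricter thresholds and each library left out. At 1845809 to 2466076 counts a library, a CPM of 1 is about 2 reads, so genes of a few CPM are imprecise.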

Additional observations from a re-analysis of the deposited data

Results flagged for a closer look

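The step from 48 h to 72 h differed between 100 µg/ml and the mean of 1 and 10 µg/ml for 11 genes, by a test of the difference itself in edgeR, adjusted over all genes tested. Among these genes the differences, as log2 at 100 µg/ml minus lower doses, were 0.76 ± 0.13 for Jun, 0.67 ± 0.12 for Fbln1, 1.17 ± 0.23 for Penk, 1.15 ± 0.23 for Rgcc, 0.51 ± 0.10 for Adh1, 0.48 ± 0.10 for Col3a1, 0.67 ± 0.14 for Lrat and 0.62 ± 0.14 for Cpxm1. They were -0.71 ± 0.12 for Cdkn1a and -0.99 ± 0.18 for Mir100hg. The signs held in all 18 fits without 1 library for each of the 11 genes, which their choice by this same test made likely. The call held in 18 of them for Jun and Cdkn1a, 16 for Mir100hg, 15 for Fbln1, 12 for Penk and Rgcc, 6 for Adh1, 3 for Col3a1 and Lrat and 2 for Cpxm1. The groups of 3 libraries were too small to test single libraries as outliers.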

How the results depend on the processing

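The 472 genes called changed became 955 when only the 6 compared libraries were fitted, 243 at an adjusted p under 0.01 and 94 at an adjusted p under 0.05 with a log2 difference of at least 1. They became 280 to 312 with 1 of the 6 libraries left out. DESeq2 called 395, and the other scalings and filters, the robust fit and the thinned counts 455 to 492. The 11 genes that differed between doses became 29 with DESeq2, 24 without a filter on low counts, 4 with thinned counts, 4 at an adjusted p under 0.01 and 2 with a log2 difference of at least 1. With 1 of the 18 libraries left out they became 2 to 10. The 29 of DESeq2 were adjusted over far fewer genes, as 28511 of the 30012 names had no adjusted p. No gene named in the text changed direction under the alternatives run. Genes with low counts are the ones this depth limits. No paired analysis was possible because replicate numbers follow accession order and the labels pair no libraries.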
